A study of Homo sapiens with 10 samples.

Results

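RNA was sequenced from 12Z cells treated with interleukin 1β (IL1β) together with 1 of a pair of JNK inhibitors, and the 2 libraries with 1 µM CDD-3013 were set against the 2 libraries with 10 µM CDD-2728. These 4 libraries, chosen by their treatment labels, are 4 of the 10 of the study. 12Z is an established immortalized line of human epithelial-like cells from a peritoneal endometriosis lesion. Cells grown in 10% serum were starved overnight in 2% charcoal-stripped serum, given compound or DMSO for 30 min and then IL1β at 10 ng/ml for 6 h. The other groups, with 2 libraries each, had IL1β with 1 µM CDD-2728, IL1β with DMSO, and DMSO with no IL1β (vehicle). No group received a compound without IL1β, and all libraries came from 1 cell line. Compound and dose change together between the groups compared, so within this comparison an effect of the compound and an effect of the dose cannot be told apart. The 1 µM CDD-2728 group shares its dose with CDD-3013 and its compound with the 10 µM group, and its levels are given beside some genes without a test against either. Nothing states that the 2 libraries of a group were separate cultures, so p-values measure only the spread between these libraries, which may be technical.

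IL1β binds its receptor at the cell surface and activates, through a shared chain of adaptor proteins, the NF-κB transcription factors and the stress kinases JNK and p38. JNK phosphorylates JUN, a subunit of the dimeric AP-1 transcription factors, and JUN in turn binds its own promoter. AP-1 sites stand in the promoters of many collagenases, chemokines and growth factor ligands, and these products are known for their part in the inflammation and tissue remodelling of endometriosis lesions.

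The 4 libraries held 17971191 and 17248542 counts with CDD-3013 and 18261624 and 16474440 counts with 10 µM CDD-2728, and the 10 libraries ranged over 16312600 to 19479416. A level is given as CPM, the count scaled to library size with TMM factors, and a difference as the log2 fold change of 1 µM CDD-3013 over 10 µM CDD-2728 ± SE, so that a positive value is higher with CDD-3013. CPM is not divided by gene length, so levels are compared between groups and not between genes. A gene is called where the adjusted p of edgeR's quasi-likelihood test (Benjamini-Hochberg, n = 2 against 2 in a fit of all 10 libraries) was under 0.05. The second principal component of the 500 most variable genes, with 14.9% of the variance, had scores of -5.53 and -6.49 for CDD-3013 and 21.43 and 21.44 for 10 µM CDD-2728. On this component 1 µM CDD-2728 scored -6.21 and -6.1, IL1β -8.69 and -9.68 and vehicle 0.44 and -0.6, so the 10 µM CDD-2728 libraries lay apart from all the others. More genes had a count in the 10 µM CDD-2728 libraries (22199 and 22247 with CDD-3013, 24618 and 23705 with 10 µM CDD-2728). Ribosomal protein genes held 4.01% and 4.75% of counts with CDD-3013, against 3.22% and 3.29% with 10 µM CDD-2728. The part of these library differences in the results was not tested.

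Of 15740 tested genes, 3333 (21.2%) were called higher with CDD-3013 and 3102 (19.7%) lower, 40.9% in all. Most of these differences were small. At least 2-fold differences were called for 189 genes higher (1.2%) and 691 genes lower (4.39%), 5.59% in all. The 4 libraries were separated by group, with no overlap, for 70.3% of tested genes. With library totals in place of TMM factors, the median log2 difference of all genes moved to -0.16, against -0.02 with TMM factors, and 2085 genes were higher and 4696 lower, so that 30.7% of calls were higher, against 51.8% with TMM factors. Without replicate 1 of 10 µM CDD-2728, 2321 genes were higher and 1996 lower. Shares of a gene list below are read against 21.2% higher and 19.7% lower. In a fit of 11057 genes with at least 5 CPM in 2 libraries, 2931 were higher and 2891 lower, larger shares than these. A list of well-expressed genes can therefore lie above the shares over all genes without being unusual for its level. The lists were also chosen with earlier results of these data known, which can set part of their shares. List shares are thus descriptive.

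**Figure D1:**
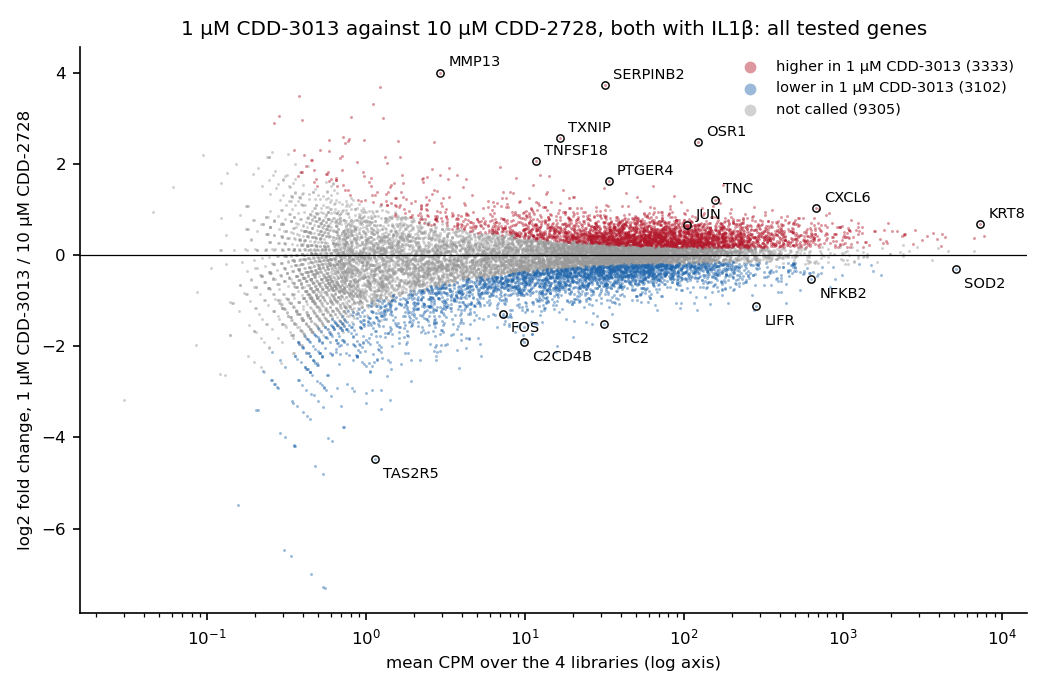
Each point is a tested gene, with its mean CPM over the 4 libraries on a log axis and its log2 fold change of 1 µM CDD-3013 over 10 µM CDD-2728; red genes were called higher with CDD-3013 (3333), blue genes lower (3102) and grey genes not called (9305). SERPINB2, OSR1 and TXNIP lie far above the rest of the genes at their level, and the genes furthest below 0 have low counts.

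JUN and DUSP8, both tied to JNK, were higher with CDD-3013 than with 10 µM CDD-2728, while HBEGF and CREB5, low in both groups, did not pass the test. JUN (chr1:58780788-58784327, minus strand in GRCh38, GENCODE 29), the main substrate of JNK among transcription factors, had 127 and 129 CPM with CDD-3013 and 76.5 and 86.6 CPM with 10 µM CDD-2728, against 308 and 324 CPM with IL1β and 132 and 146 CPM with vehicle. Both CDD-3013 libraries were above both 10 µM CDD-2728 libraries and below both vehicle and IL1β libraries, and the log2 difference was 0.65 ± 0.07 (adjusted p = 6.86e-07). DUSP8 (chr11:1554044-1571920, minus strand), a phosphatase that inactivates JNK and p38, had 10.8 and 10.1 CPM with CDD-3013, 4.26 and 5.49 CPM with 10 µM CDD-2728 and 59.3 and 59.6 CPM with IL1β, a difference of 1.11 ± 0.16 between the compounds (adjusted p = 1.02e-05).

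HBEGF (chr5:140332843-140346631, minus strand), a ligand of the EGF receptor, had 31.5 and 32.7 CPM with CDD-3013, 27.1 and 27.9 CPM with 10 µM CDD-2728 and 150 and 155 CPM with IL1β. All 4 compound libraries lay below the vehicle libraries (48.2 and 54.5 CPM), and the log2 difference between the compounds was 0.22 (unadjusted 95% interval 0.04 to 0.40, adjusted p = 0.0503), short of the threshold. It passed with RLE size factors or a replicate term. CREB5 (chr7:28299321-28825894, plus strand), a bZIP factor that pairs with JUN, had 1.96 and 1.77 CPM with CDD-3013, 2.40 and 3.4 CPM with 10 µM CDD-2728 and 16.7 and 18.8 CPM with IL1β. Its difference between the compounds was -0.62 (95% interval -1.24 to -0.0048, adjusted p = 0.0966) and was called only with library totals. For these genes each compound arm can also be set against IL1β, with the IL1β libraries shared by both arms. Log2 differences from IL1β were -1.31 for JUN, -2.51 for DUSP8, -2.25 for HBEGF and -3.24 for CREB5 with CDD-3013, and -1.96, -3.61, -2.47 and -2.62 in the same order with 10 µM CDD-2728; all 8 passed the test. In those comparisons 36.4% of genes were called with CDD-3013 and 31.5% with 10 µM CDD-2728. With 1 µM CDD-2728, JUN had 165 and 169 CPM, DUSP8 15.9 and 19.3 CPM, HBEGF 48.8 and 50.5 CPM and CREB5 2.37 and 4.32 CPM.

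Of 24 JNK kinases, activators and scaffolds, all tested, 3 were higher and 7 lower with CDD-3013 (median log2 difference 0.02, against -0.02 for all genes). The balance turned to 5 higher and 2 lower after a correction for length and GC content and to 4 and 2 without replicate 1 of 10 µM CDD-2728. It was 1 and 10 with library totals, 1 and 7 without replicate 2 of 10 µM CDD-2728 and 3 and 4 without replicate 1 of CDD-3013. MAPK8 (chr10:48306639-48439360, plus strand), which encodes JNK1, had 27.1 and 25.8 CPM with CDD-3013 and 34.7 and 33.0 CPM with 10 µM CDD-2728, a difference of -0.36 ± 0.10 that was lost with the length and GC correction and without either replicate 1 of 10 µM CDD-2728 or replicate 2 of CDD-3013. MAPK9 (chr5:180233143-180292099, minus strand), which encodes JNK2, differed by 0.03 (95% interval -0.14 to 0.20). MAPK10 (chr4:85990007-86594625, minus strand), which encodes JNK3, was near 1 to 3 CPM and its difference of -1.19 ± 0.37 was also lost after the length and GC correction and without either replicate 1. The kinase MAP3K11 (0.37 ± 0.07) was higher, and MAP3K10 (-0.45 ± 0.11) and the scaffold SPAG9 (-0.34 ± 0.07, lost after the length and GC correction) were lower. Of 17 p38 and ERK kinases and activators 6 were higher and 3 lower, or 5 and 9 with library totals. The p38 activator MAP2K6 (chr17:69414698-69553861, plus strand) had 0.831 and 0.695 CPM with CDD-3013 and 2.88 and 2.87 CPM with 10 µM CDD-2728 (-1.90 ± 0.35). The ERK-activating kinase MAP3K8 was lower as well (-0.73 ± 0.10), and the p38 kinase MAPK12 higher (0.42 ± 0.08).

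Among AP-1 and related bZIP factors, JUN included, most called genes were lower with CDD-3013. In all, 16 of 18 were tested, with 3 higher, 8 lower and a median of -0.24; the higher count was 1 with library totals, with the stricter filter and without either 10 µM CDD-2728 library or replicate 2 of CDD-3013, and the lower count was 5 without replicate 2 of 10 µM CDD-2728 or replicate 1 of CDD-3013. FOS (chr14:75278774-75282230, plus strand), the founding partner of JUN, had 4.21 and 4.17 CPM with CDD-3013, 9.44 and 11.1 CPM with 10 µM CDD-2728 and 2.52 and 1.69 CPM with IL1β (-1.29 ± 0.20, adjusted p = 2.2e-05). Both compound groups were above the IL1β libraries, the 10 µM CDD-2728 libraries further. The stress-induced ATF3 had 15.4 and 18.3 CPM with CDD-3013 and 24.1 and 27.4 CPM with 10 µM CDD-2728 (-0.61 ± 0.12). JUNB (-0.34 ± 0.10) lost its call without replicate 2 of 10 µM CDD-2728 or replicate 1 of CDD-3013, and FOSL1, a FOS-related subunit, did not pass (-0.12, 95% interval -0.47 to 0.23).

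**Figure D2:**
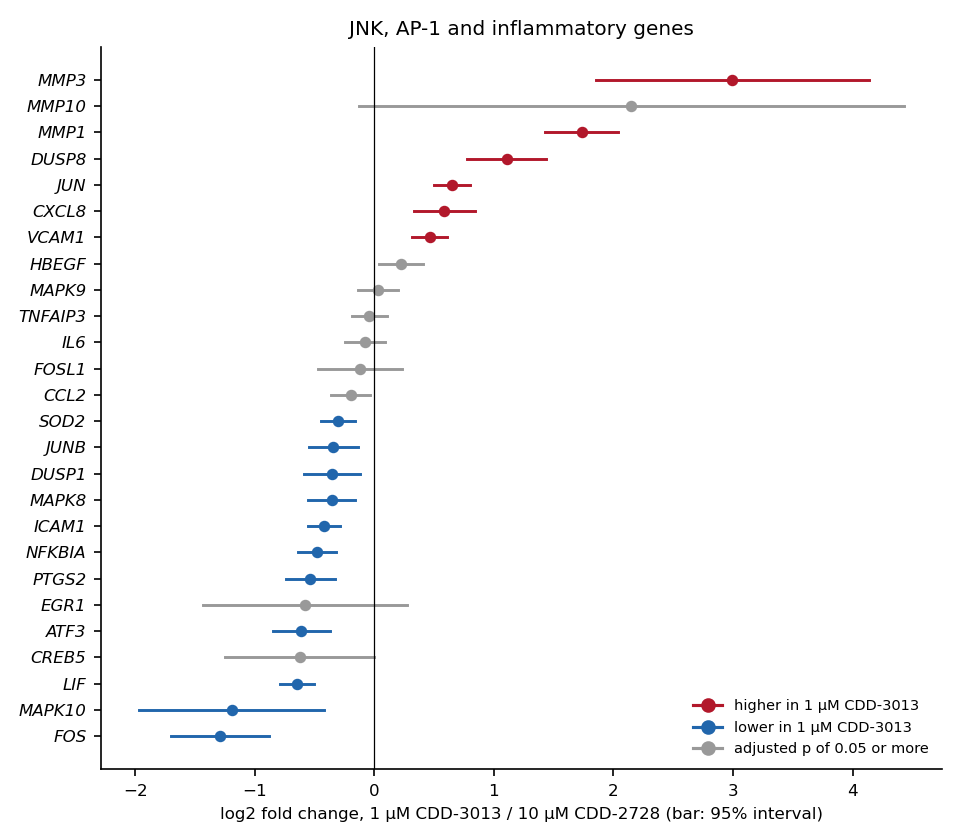
Log2 fold change of 1 µM CDD-3013 over 10 µM CDD-2728 with its 95% interval for 26 JNK, AP-1 and inflammatory genes; red and blue genes passed the test and grey genes did not. JUN and DUSP8 lie above 0 (0.65 and 1.11), FOS below it (-1.29), and the intervals of MAPK9, IL6, TNFAIP3 and FOSL1 span 0.

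Genes of proteolysis and matrix remodelling were among those with the largest rises. SERPINB2 (chr18:63871692-63903890, plus strand), an inhibitor of urokinase, had 54.2 and 64.1 CPM with CDD-3013 and 3.36 and 5.67 CPM with 10 µM CDD-2728, against 69.9 and 64.4 CPM with 1 µM CDD-2728, 90.5 and 93.5 CPM with IL1β and 1.57 and 1.69 CPM with vehicle. The groups did not overlap, the 10 µM CDD-2728 libraries lay nearest to vehicle, and the difference was 3.73 ± 0.16 (13.2-fold, adjusted p = 5.23e-13). The tissue plasminogen activator PLAT had 81.7 and 82.6 CPM with CDD-3013 and 37.2 and 41.9 CPM with 10 µM CDD-2728 (1.06 ± 0.08); its IL1β libraries (87.8 and 88.4 CPM) were close to those with CDD-3013, and its difference from IL1β with CDD-3013 did not pass (-0.10). Of 11 tested plasminogen activators and serpins (of 13), 4 were higher and 4 lower, the lower count being 2 without replicate 2 of either group.

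The collagenase MMP1 (chr11:102789920-102798160, minus strand) had 21.6 and 22.1 CPM with CDD-3013 and 7.09 and 5.97 CPM with 10 µM CDD-2728, with 16.6 and 14.2 CPM under IL1β and 4.84 and 6.23 CPM in vehicle. Its difference was 1.73 ± 0.15 (3.32-fold, adjusted p = 1.41e-08), and 1 of the 10 µM CDD-2728 libraries lay within the range of vehicle while both CDD-3013 libraries lay above IL1β. MMP13 (chr11:102942995-102955734, minus strand), another collagenase, had 180 counts in the 2 CDD-3013 libraries and 12 in the 2 10 µM CDD-2728 libraries, a ratio of 14.8 after scaling to library size (95% counting interval 8.26 to 29.2; log2 difference 4.0 ± 0.47). Its levels were 5.82 and 5.18 CPM with CDD-3013, 6.70 and 6.17 CPM with 1 µM CDD-2728 and 0.267 and 0.418 CPM with 10 µM CDD-2728. The stromelysin MMP3 (chr11:102835801-102843803, minus strand) had 75 counts with CDD-3013 and 10 with 10 µM CDD-2728, a ratio of 7.4 (3.81 to 16.1). MMP10, its neighbour on chromosome 11, had 13 counts with CDD-3013 and 3 with 10 µM CDD-2728 and did not pass (95% interval of the log2 difference -0.13 to 4.43; it was called only without replicate 1 of 10 µM CDD-2728). The gelatinase MMP9 had 12.0 and 12.3 CPM with CDD-3013 and 5.28 and 4.12 CPM with 10 µM CDD-2728 (1.36 ± 0.17). These 4 called genes were the 4 higher metalloproteinases; 2 were lower, of 14 tested and 17 listed. Against IL1β, MMP13 and MMP1 were higher with CDD-3013 (1.08 and 0.50) and lower with 10 µM CDD-2728 (-2.91 and -1.24), all past the threshold, while MMP9 and MMP3 passed only with 10 µM CDD-2728 (0.04 and -0.51 with CDD-3013, -1.33 and -3.51 with 10 µM CDD-2728).

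Tenascin C (TNC, chr9:115019578-115118257, minus strand), an adhesion-modulating matrix glycoprotein, had 218 and 220 CPM with CDD-3013, 86.9 and 102 CPM with 10 µM CDD-2728 and 562 and 623 CPM with IL1β (1.21 ± 0.08, adjusted p = 1.04e-09). Both compound groups were below IL1β, and the 10 µM CDD-2728 libraries were the closer to vehicle (77.4 and 79.2 CPM). COL16A1, a fibril-associated collagen, was also higher with CDD-3013 (1.03 ± 0.08) and the short-chain collagen COL8A1 lower (-1.02 ± 0.12). Of 30 tested collagens and matrix genes 6 were higher and 7 lower, a balance that turned to 9 and 5 after the length and GC correction and to 6 and 5 without replicate 2 of CDD-3013; the lower count was 13 with library totals and 11 with the stricter filter. Among TIMPs, ADAMs and ADAMTS proteases 4 were higher and 4 lower of 17, or 7 and 2 after the length and GC correction; the lower count was 1 or 2 without any 1 of the 4 libraries. The higher ones named were the inhibitor TIMP1 (0.77 ± 0.08), the aggrecan- and versican-cleaving ADAMTS1 (0.76 ± 0.09) and ADAM15 (0.46 ± 0.07).

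**Figure D3:**
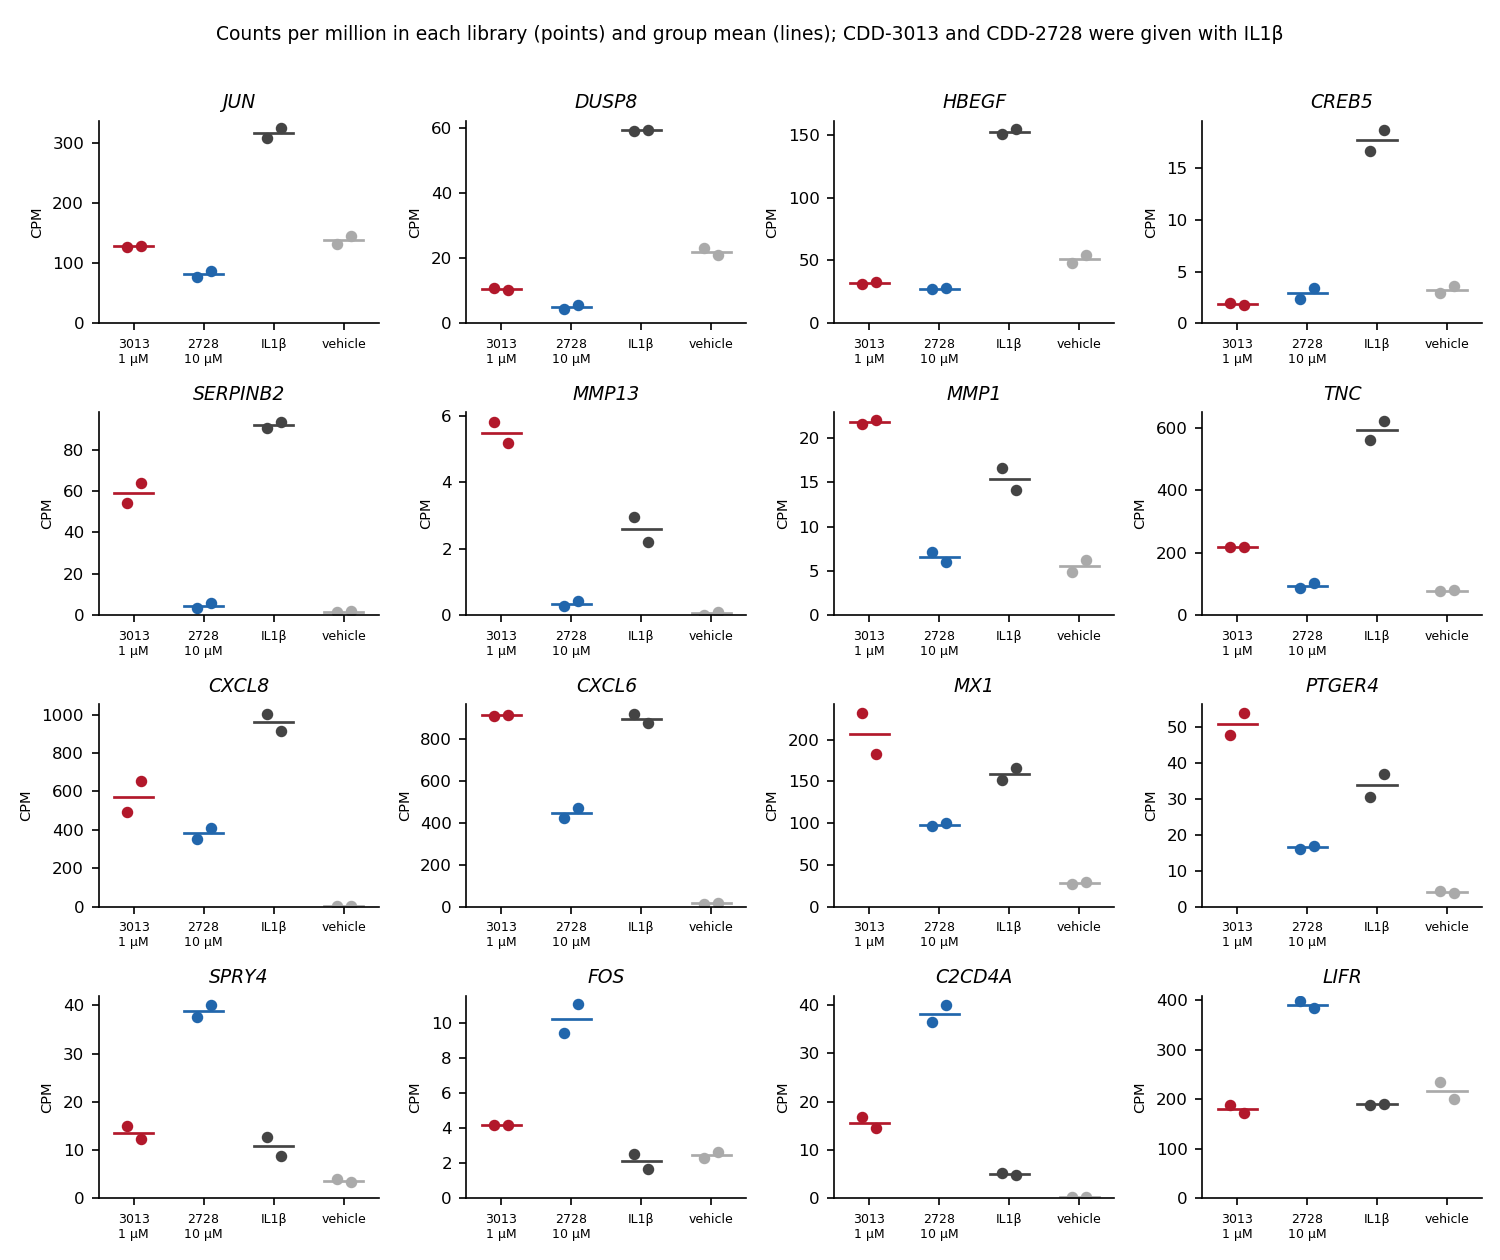
CPM of 16 genes in each library (points) with group means (lines), for IL1β with 1 µM CDD-3013, IL1β with 10 µM CDD-2728, IL1β and vehicle, on linear axes from 0. JUN, SERPINB2, MMP13 and TNC are higher with CDD-3013 than with 10 µM CDD-2728, HBEGF and CREB5 are low in both, and SPRY4, FOS, C2CD4A and LIFR are highest with 10 µM CDD-2728.

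Chemokines, the secreted proteins that attract leukocytes, were more often higher than lower with CDD-3013. Of 16 tested (of 18) 9 were higher and 1 lower, with a median of 0.62; with library totals the counts were 8 and 4, and 3 were lower after the length and GC correction. The neutrophil attractant CXCL8 (chr4:73740506-73743716, plus strand) had 491 and 655 CPM with CDD-3013, 352 and 411 CPM with 10 µM CDD-2728 and 1004 and 914 CPM with IL1β (0.59 ± 0.12, adjusted p = 0.00147). CXCL6 (chr4:73836497-73849064, plus strand), another neutrophil attractant, had 911 and 917 CPM with CDD-3013 and 423 and 470 CPM with 10 µM CDD-2728 (1.03 ± 0.07), with the CDD-3013 libraries in the range of IL1β (922 and 876 CPM). The monocyte attractant CCL7 (chr17:34270221-34272242, plus strand) had 23.4 and 27.4 CPM with CDD-3013 and 9.06 and 9.97 CPM with 10 µM CDD-2728 (1.42 ± 0.14, 2.67-fold).

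The lower member was CXCL2 (chr4:74097035-74099293, minus strand), a neutrophil attractant close in sequence to CXCL1 and CXCL3, with 145 and 154 CPM with CDD-3013 and 238 and 246 CPM with 10 µM CDD-2728 (-0.70 ± 0.08). Both groups were above IL1β (112 and 121 CPM). CCL2, the main monocyte attractant, had 427 and 488 CPM with CDD-3013 and 489 and 560 CPM with 10 µM CDD-2728 and did not pass (-0.20, 95% interval -0.36 to -0.03, adjusted p = 0.0521), though 5 alternatives called it lower. How reads that fit more than 1 of these related genes were counted is not given in the sources used here.

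AP-1 is the factor that JNK acts on. Promoters of the called AP-1, metalloproteinase, chemokine and EGF receptor ligand genes named here were searched where the table has an entry. The pattern searched was TGANTCA, which is wider than the AP-1 consensus TGA(C/G)TCA, and the 3 promoters that held the pattern are shown. The called MMP1, MMP3, MMP9, MMP13 and NRG1 have no entry and were not searched. Sequences are those of RefSeq on GRCh38.p14, upstream of the transcription start, on the plus strand. CCL7 lies at chr17:34269971-34270220, CXCL8 at chr4:73740319-73740505 and EGF at chr4:109912633-109912882. The capitals mark the match to TGANTCA. It is TGACTCA in CXCL8 and TGAGTCA in EGF, but TGATTCA in CCL7, which departs from the consensus at the middle base. The match starts 51 bases before the start of CCL7, 17 before that of EGF and 137 before the RefSeq start of CXCL8. That start lies within the GENCODE gene, and the stretch shown ends where the gene begins.
CCL7: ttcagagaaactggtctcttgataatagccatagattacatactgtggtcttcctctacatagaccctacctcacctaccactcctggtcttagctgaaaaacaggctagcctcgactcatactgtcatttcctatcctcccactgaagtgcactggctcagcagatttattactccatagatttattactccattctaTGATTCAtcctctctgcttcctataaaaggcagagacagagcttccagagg
CXCL8: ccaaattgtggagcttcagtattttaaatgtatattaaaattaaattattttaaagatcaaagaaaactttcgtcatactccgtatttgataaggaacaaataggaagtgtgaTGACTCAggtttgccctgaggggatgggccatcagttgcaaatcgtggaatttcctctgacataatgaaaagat
EGF: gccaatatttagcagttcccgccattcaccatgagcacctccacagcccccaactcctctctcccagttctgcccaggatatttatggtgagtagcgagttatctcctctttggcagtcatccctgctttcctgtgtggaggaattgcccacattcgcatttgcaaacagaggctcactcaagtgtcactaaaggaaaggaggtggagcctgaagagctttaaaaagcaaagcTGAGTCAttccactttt
The letters TGANTCA on either strand, from 250 bases before to 50 after the start, were found in 126 of 2707 promoters of genes higher with CDD-3013 (4.65%), in 102 of 2356 of genes lower (4.33%) and in 537 of all 11220 tested genes with a RefSeq promoter (4.79%). Among genes at least 2-fold higher with CDD-3013 they stood in 13 of 113 (11.5%, 95% Wilson interval 6.85 to 18.7), and among genes at least 2-fold lower in 26 of 415 (6.27%, 4.31 to 9.02). The share over all 27305 promoters of the table was 7.76%. The letters were also in the window of MMP10, and were not in those of JUN, JUNB, FOS, ATF3, CXCL6, CXCL2, HBEGF, CREB5 and EGFR. CCL2 and FOSL1 were not searched either, for want of an entry.

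EGF itself, the ligand whose promoter is shown, had 19 counts with CDD-3013 and 54 with 10 µM CDD-2728 (-1.37 ± 0.50), a call lost in DESeq2 and without replicate 1 of 10 µM CDD-2728 or replicate 2 of CDD-3013. The EGF receptor gene EGFR had 317 and 337 CPM with CDD-3013, 500 and 471 CPM with 10 µM CDD-2728 and 547 and 524 CPM with IL1β (-0.57 ± 0.08). Of 6 tested ligands and receptors of this family (12 listed), 1 was higher, the ligand NRG1 (0.46 ± 0.17, adjusted p = 0.0308), and 2 were lower. The call of NRG1 was lost with library totals, in DESeq2 and without either 10 µM CDD-2728 library or replicate 2 of CDD-3013.

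Interferon-stimulated genes, which encode antiviral effectors and their sensors, were more often higher than lower with CDD-3013. Of 43 tested (44 listed) 30 were higher and 1 lower, with a median of 0.48, and 21 were higher and 1 lower with library totals. The antiviral GTPase MX1 (chr21:41420304-41459214, plus strand) had 232 and 182 CPM with CDD-3013 and 96.1 and 101 CPM with 10 µM CDD-2728, against 152 and 166 CPM with IL1β (1.08 ± 0.09, 2.11-fold). IFIT1 (chr10:89392546-89406486, plus strand), which binds viral RNA, had 82.9 and 65.1 CPM with CDD-3013 and 32.1 and 32.8 CPM with 10 µM CDD-2728 (1.19 ± 0.11). Against the shared IL1β libraries both genes were higher with CDD-3013 (0.38 for MX1 and 0.78 for IFIT1) and lower with 10 µM CDD-2728 (-0.70 and -0.41), and these 4 differences passed. IRF1 (chr5:132481609-132490798, minus strand), a transcription factor induced by both interferon and NF-κB, was the member that was lower, with 50.2 and 49.9 CPM with CDD-3013 and 95.8 and 90.5 CPM with 10 µM CDD-2728 (-0.90 ± 0.09).

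The list of MHC class I and antigen processing genes gave 10 higher and 1 lower of 15 (median 0.33), with 5 higher without replicate 1 of 10 µM CDD-2728. The peptide transporter TAP1 had 227 and 234 CPM with CDD-3013 and 127 and 136 CPM with 10 µM CDD-2728 (0.81 ± 0.07). The immunoproteasome subunits PSMB10 (0.87 ± 0.10) and PSMB8 (0.76 ± 0.10) were higher too.

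NF-κB subunits and feedback genes were more often lower than higher with CDD-3013. Of 26 tested 6 were higher and 11 lower (median -0.16), with 3 higher either with library totals or without replicate 1 of 10 µM CDD-2728. NFKB2 (chr10:102394110-102402529, plus strand), which encodes the p100 precursor, had 536 and 505 CPM with CDD-3013, 743 and 754 CPM with 10 µM CDD-2728 and 368 and 362 CPM with IL1β (-0.52 ± 0.06). NFKBIA (chr14:35401511-35404749, minus strand), the inhibitor IκBα and itself an NF-κB target, had 256 and 295 CPM with CDD-3013 and 381 and 386 CPM with 10 µM CDD-2728 (-0.48 ± 0.08). The anti-apoptotic ubiquitin ligase BIRC3 was lower (-0.61 ± 0.06), and the kinase IKBKE, which acts in interferon induction, was higher (0.91 ± 0.09). TNFAIP3, the ubiquitin-editing feedback enzyme, had 588 and 590 CPM with CDD-3013 and 609 and 603 CPM with 10 µM CDD-2728 and did not pass (95% interval -0.19 to 0.11).

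Other inflammatory products of the IL1β response were called in both directions. PTGS2 (chr1:186671791-186680427, minus strand), the inducible cyclooxygenase of prostaglandin synthesis, had 64.5 and 68.6 CPM with CDD-3013 and 86.0 and 107 CPM with 10 µM CDD-2728 (-0.54 ± 0.10), both above IL1β (45 and 46.5 CPM). PTGER4 (chr5:40679498-40693735, plus strand), the EP4 receptor for prostaglandin E2, had 47.7 and 53.8 CPM with CDD-3013 and 16.1 and 17.0 CPM with 10 µM CDD-2728 (1.62 ± 0.11, 3.07-fold), with 30.4 and 37.0 CPM under IL1β between the compounds. The EP3 receptor PTGER3 was lower (-1.17 ± 0.15) and the synthase PTGES2 higher (0.47 ± 0.07). In this list of 18 tested genes 3 were higher and 4 lower (16.7% and 22.2%), near the shares over all tested genes (21.2% and 19.7%).

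Of 23 tested cytokines and receptors 5 were higher and 7 lower (21.7% and 30.4%, against 21.2% and 19.7% of all tested genes). LIF (chr22:30240447-30246851, minus strand), a cytokine of the IL6 family, had 332 and 349 CPM with CDD-3013 and 511 and 554 CPM with 10 µM CDD-2728 (-0.64 ± 0.07), and its receptor LIFR (chr5:38474963-38608354, minus strand) had 188 and 173 CPM with CDD-3013 and 398 and 384 CPM with 10 µM CDD-2728 (-1.11 ± 0.08). For both genes the CDD-3013 libraries lay near IL1β (337 and 321 CPM for LIF and 189 and 190 CPM for LIFR), and their differences from IL1β did not pass (0.05 and -0.07). CLCF1, a ligand of the same family, was higher (14.6 and 12.3 CPM with CDD-3013 and 4.05 and 4.30 CPM with 10 µM CDD-2728, 1.69 ± 0.17). IL6 had 95.1 and 98.7 CPM with CDD-3013 and 102 and 102 CPM with 10 µM CDD-2728 and did not pass (95% interval -0.24 to 0.09); it was called lower with library totals and after the length and GC correction.

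In the acute-phase and C/EBP list of 14 tested genes 3 were higher and 7 lower, or 4 lower without replicate 2 of 10 µM CDD-2728. LCN2, an iron-scavenging lipocalin, had 30.2 and 23.1 CPM with CDD-3013 and 11.1 and 11.5 CPM with 10 µM CDD-2728 (1.24 ± 0.14). C2CD4A (chr15:62066977-62070917, plus strand), known as a cytokine-induced nuclear protein of endothelial cells, had 16.9 and 14.5 CPM with CDD-3013 and 36.4 and 39.9 CPM with 10 µM CDD-2728 (-1.28 ± 0.12). Its paralog C2CD4B had 3.68 and 4.61 CPM with CDD-3013 and 14.7 and 16.5 CPM with 10 µM CDD-2728 (-1.91 ± 0.20). Both paralogs were above IL1β in both groups (5.14 and 4.77 CPM for C2CD4A and 1.17 and 1.44 CPM for C2CD4B). SOD2, the mitochondrial superoxide dismutase, had 4529 and 4687 CPM with CDD-3013 and 5687 and 5678 CPM with 10 µM CDD-2728 (-0.30 ± 0.07).

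MAPK phosphatases and Sprouty genes, and immediate-early genes, were more often lower than higher with CDD-3013. ERK signalling is known to induce many genes of both kinds, but the first list also holds phosphatases that act on JNK and p38. Of 17 tested MAPK phosphatases and Sprouty genes (18 listed) 2 were higher, DUSP8 among them, and 9 lower, with a median of -0.35. SPRY4 (chr5:142310427-142326455, minus strand), an inhibitor of receptor tyrosine kinase signalling, had 15.0 and 12.2 CPM with CDD-3013, 37.6 and 40.1 CPM with 10 µM CDD-2728 and 12.7 and 8.84 CPM with IL1β (-1.51 ± 0.14, 2.85-fold lower with CDD-3013). The CDD-3013 libraries overlapped IL1β and their difference from it did not pass (0.33), while the 10 µM CDD-2728 libraries were above every other library and their difference from IL1β passed (1.84). SPRY2 (-1.02 ± 0.12) and the ERK phosphatase DUSP4 (-0.70 ± 0.09) were also lower. DUSP1, a phosphatase of all 3 MAPK families, was lower (-0.35 ± 0.11), a call lost without either 10 µM CDD-2728 library or replicate 1 of CDD-3013.

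Of 17 tested immediate-early and SRF factors (20 listed) 10 were lower and 1 higher with CDD-3013 (median -0.58). IER3, an early response gene, had 207 and 225 CPM with CDD-3013 and 323 and 358 CPM with 10 µM CDD-2728 (-0.66 ± 0.07). The zinc-finger factor KLF6 (-0.74 ± 0.08) and PHLDA1 (-0.90 ± 0.11) were lower as well. EGR1, the zinc-finger factor that ERK induces, was near 1 CPM in both groups and did not pass (95% interval -1.43 to 0.27). The nuclear receptors NR4A1 (-1.29), NR4A2 (-1.19) and NR4A3 (-1.07) were among the lower members; they are named after their values were seen.

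The integrated stress, p53 and FOXO and MondoA lists were likewise more often lower with CDD-3013. The heat shock and NRF2 lists below were not. Of 29 integrated stress and unfolded protein response genes 5 were higher and 15 lower (median -0.36), with 2 higher with library totals and 3 after the length and GC correction or without replicate 1 of 10 µM CDD-2728. STC2 (chr5:173314713-173329503, minus strand), a secreted glycoprotein induced by ATF4, had 16.4 and 16.1 CPM with CDD-3013 and 45.9 and 46.9 CPM with 10 µM CDD-2728 (-1.51 ± 0.10, adjusted p = 9e-10). All 4 libraries lay outside the IL1β range (22.6 and 23.0 CPM), CDD-3013 below and 10 µM CDD-2728 above. SLC7A11, the cystine transporter that ATF4 and NRF2 induce, was lower (-0.96 ± 0.10), and SDF2L1, an endoplasmic reticulum chaperone partner, higher (0.66 ± 0.08).

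Of 24 p53 target genes 1 was higher and 15 lower (median -0.33). The secreted stress cytokine GDF15 had 20.3 and 22.3 CPM with CDD-3013 and 32.5 and 37.8 CPM with 10 µM CDD-2728 (-0.72 ± 0.12). SESN2 (-0.59 ± 0.09), which restrains mTORC1, and MDM2 (-0.55 ± 0.09), the ubiquitin ligase of p53, were lower as well. Of 16 tested FOXO and MondoA targets 2 were higher and 12 lower (median -0.45). BCL6 (-0.86 ± 0.09) and KLHL24 (-0.89 ± 0.12) were lower. But the list also held TXNIP (chr1:145992435-145996600, minus strand), a thioredoxin-interacting arrestin whose gene MondoA induces in response to glucose. TXNIP had 31.7 and 25.2 CPM with CDD-3013 and 4.53 and 5.13 CPM with 10 µM CDD-2728 (2.56 ± 0.19, 5.90-fold). Its CDD-3013 libraries overlapped those with 1 µM CDD-2728 (30.1 and 27.2 CPM) and vehicle (26.4 and 34.2 CPM) and its 10 µM CDD-2728 libraries were below every other group.

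Heat shock genes gave 9 higher and 3 lower of 16, with 5 higher with library totals. The cochaperone DNAJB1 was higher (0.42 ± 0.07). The near-identical HSP70 genes HSPA1A (-0.44 ± 0.06) and HSPA1B (-0.41 ± 0.07), whose reads the counting could split, were lower. Outside the list, HSPA6, a strictly inducible HSP70, had 17 counts with CDD-3013 and 98 with 10 µM CDD-2728. NRF2 targets gave 8 higher and 6 lower of 20, turning to 6 and 7 with library totals and 5 and 6 after the length and GC correction; without replicate 1 of CDD-3013 the lower count was 3. The quinone reductase NQO1 was higher (0.53 ± 0.08) and the glutathione-synthesis subunit GCLM lower (-0.48 ± 0.07).

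Among cell cycle genes the calls were more often higher than lower with CDD-3013, and the differences were small. Of 33 tested DNA replication and G1/S genes (34 listed) 15 were higher and 1 lower (median 0.19), or 9 and 3 with library totals. The replicative helicase subunits MCM7 (668 and 676 CPM with CDD-3013 and 465 and 477 CPM with 10 µM CDD-2728, 0.51 ± 0.07) and MCM5 (0.52 ± 0.07) and the flap endonuclease FEN1 (0.49 ± 0.07) were among them. Of 30 mitosis and G2/M genes 16 were higher and 2 lower (median 0.22), or 12 and 2 with library totals. The mitotic kinase AURKA had 251 and 265 CPM with CDD-3013 and 160 and 139 CPM with 10 µM CDD-2728 (0.79 ± 0.07), and UBE2C (0.64 ± 0.07) and CDC20 (0.65 ± 0.07), which act in the anaphase-promoting complex pathway, were higher as well. In a bulk sample, fewer cells of a kind and less RNA per cell cannot be told apart.

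**Figure D4:**
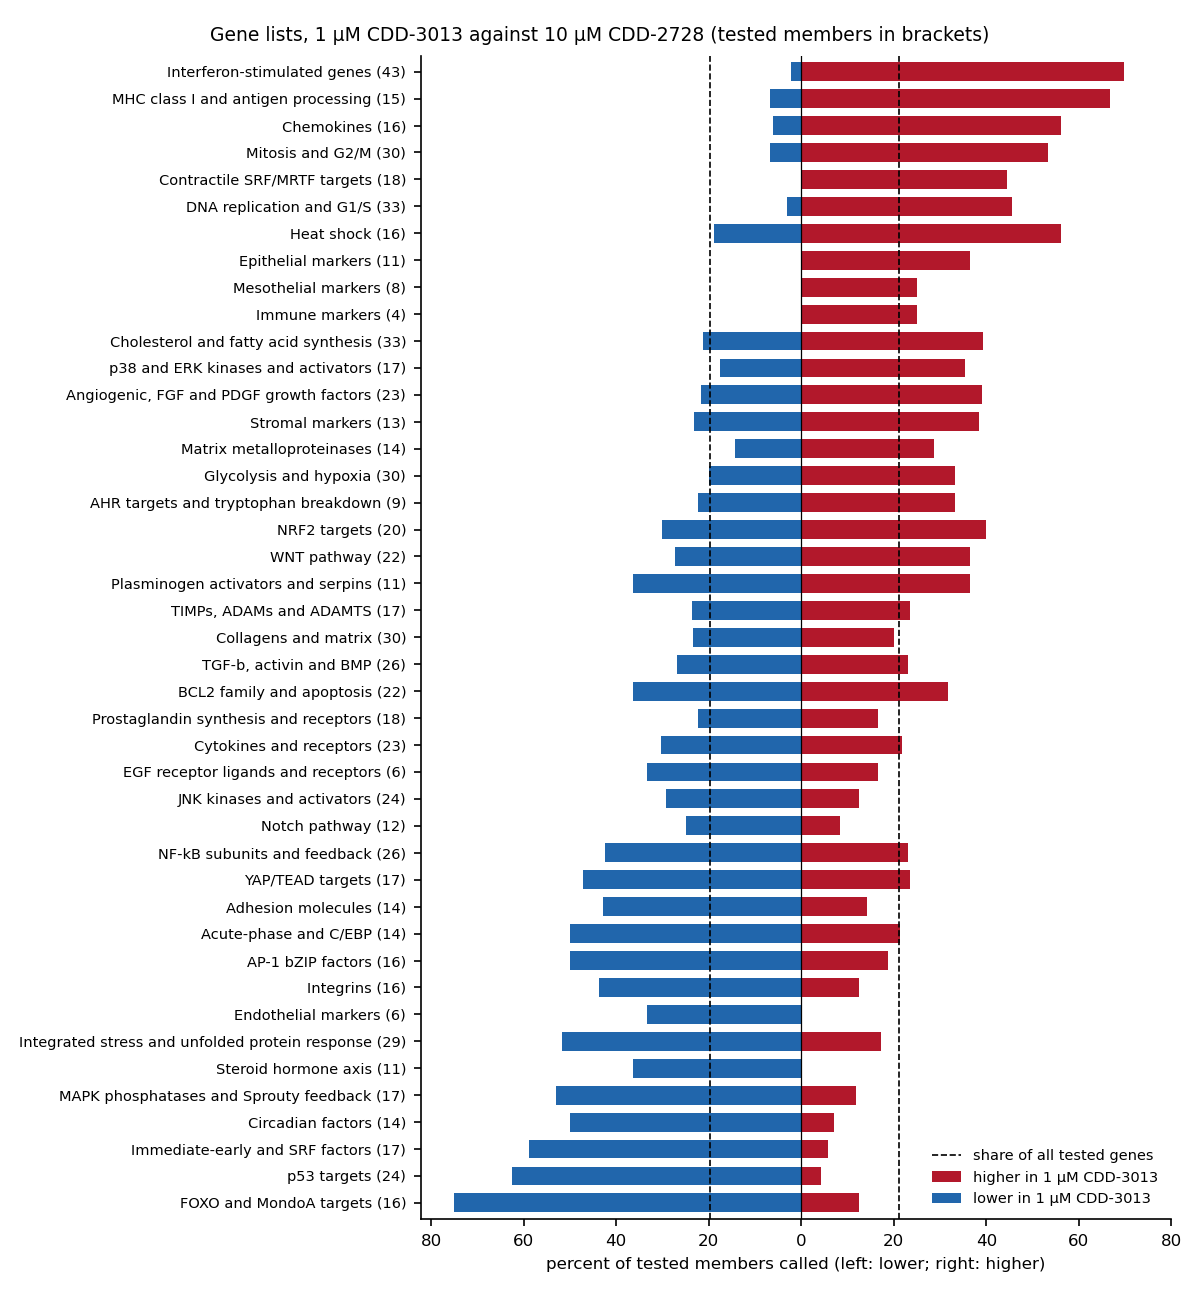
For each gene list, with its number of tested members in brackets, the share of tested members called higher with 1 µM CDD-3013 runs to the right and the share called lower to the left; dashed lines mark the shares over all tested genes (21.2% higher and 19.7% lower). Interferon-stimulated genes (69.8% higher) and FOXO and MondoA targets (75% lower) lie at the ends.

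Growth factor and developmental signalling genes were called in both directions, as all tested genes were (21.2% higher and 19.7% lower). Of 23 tested angiogenic, FGF and PDGF growth factors 9 were higher and 5 lower. The placental growth factor PGF had 44.0 and 44.0 CPM with CDD-3013 and 19.9 and 21.6 CPM with 10 µM CDD-2728 (1.09 ± 0.11), the insulin-like growth factor receptor IGF1R was lower (-0.88 ± 0.08), and the VEGF receptor KDR was lower too (-0.93 ± 0.10). Of 26 TGF-β, activin and BMP genes 6 were higher and 7 lower, turning to 8 and 7 with a replicate term, 7 and 4 without replicate 2 of 10 µM CDD-2728 and 8 and 6 without replicate 1 of CDD-3013; the lower count was 11 with library totals. INHBA (chr7:41667168-41705834, minus strand), the activin A subunit, had 14.1 and 15.8 CPM with CDD-3013, 6.29 and 6.21 CPM with 10 µM CDD-2728 and 30.6 and 28.3 CPM with IL1β (1.26 ± 0.15). The ligand BMP4 was higher (0.86 ± 0.11) and the receptor BMPR2 lower (-0.70 ± 0.08).

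WNT pathway genes gave 8 higher and 6 lower of 22 tested, or 7 and 10 with library totals; the lower count was 3 after the length and GC correction or without replicate 1 of CDD-3013, and the higher count 5 without its replicate 2. The ligand WNT5A (0.61 ± 0.07) and receptor FZD2 (0.61 ± 0.08) were higher and the receptor FZD8 lower (-1.07 ± 0.15). Notch genes gave 1 higher, the target HES4 (0.71 ± 0.12), and 3 lower of 12, the ligands DLL4 (2.08 and 1.64 CPM with CDD-3013 and 5.87 and 7.34 CPM with 10 µM CDD-2728, -1.82 ± 0.27) and JAG1 (-0.73 ± 0.16) among them. Contractile SRF/MRTF targets gave 8 higher and 0 lower of 18 tested, but 5 and 3 with library totals, and 4 were higher without replicate 2 of CDD-3013. No member was called lower by edgeR's quasi-likelihood test or by DESeq2, and 1 was lower at an unadjusted p under 0.05. Tropomyosin TPM2 (0.57 ± 0.07), TAGLN2 (0.60 ± 0.08) and TAGLN (0.53 ± 0.08) were higher. YAP/TEAD targets gave 4 higher and 8 lower of 17, with the LIM protein AJUBA at 135 and 130 CPM with CDD-3013 and 63.7 and 54.9 CPM with 10 µM CDD-2728 (1.16 ± 0.07), ARHGEF17 higher (0.50 ± 0.08) and CCN2 lower (-0.63 ± 0.09).

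Surface adhesion genes were more often lower. Of 14 tested adhesion molecules 2 were higher and 6 lower, with 3 lower without replicate 1 of either group or replicate 2 of CDD-3013. ICAM1 (chr19:10270835-10286615, plus strand), which binds leukocyte integrins, had 576 and 614 CPM with CDD-3013 and 794 and 798 CPM with 10 µM CDD-2728 (-0.42 ± 0.06). VCAM1 (chr1:100719742-100739045, plus strand), which binds integrin α4β1, had 391 and 444 CPM with CDD-3013 and 287 and 320 CPM with 10 µM CDD-2728 (0.46 ± 0.07), and the hyaluronan receptor CD44 was higher too (0.36 ± 0.07). Integrins gave 2 higher and 7 lower of 16, or 3 lower after the length and GC correction. The fibronectin receptor subunit ITGA5 was higher (0.57 ± 0.07), and the laminin receptor subunits ITGB4 (-0.63 ± 0.08) and ITGA6 (-0.60 ± 0.09) were lower.

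Of 9 tested AHR targets and tryptophan-breakdown genes 3 were higher and 2 lower. AHR itself (chr7:16916359-17346152, plus strand), the ligand-activated aryl hydrocarbon receptor, had 17.7 and 22.9 CPM with CDD-3013 and 53.7 and 46.3 CPM with 10 µM CDD-2728 (-1.30 ± 0.12). Its target CYP1B1 had 409 and 439 CPM with CDD-3013 and 252 and 254 CPM with 10 µM CDD-2728 (0.75 ± 0.07), so the receptor and this target differed in opposite directions. TDO2, which opens the tryptophan ring, was higher (1.17 ± 0.16).

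Metabolic genes were called in both directions, as all tested genes were (21.2% higher and 19.7% lower). Cholesterol and fatty acid synthesis gave 13 higher and 7 lower of 33, turning to 5 and 10 with library totals and 5 and 7 without replicate 2 of 10 µM CDD-2728; the lower count was 2 to 4 in DESeq2 and without any other of the 4 libraries. The sterol enzymes NSDHL (0.73 ± 0.07) and FDPS (0.57 ± 0.07) were higher, and the cholesterol exporter ABCA1 had 98.3 and 89.1 CPM with CDD-3013 and 207 and 187 CPM with 10 µM CDD-2728 (-1.07 ± 0.08). Glycolysis and hypoxia genes gave 10 higher and 6 lower of 30. The lactate exporter SLC16A3 had 1054 and 1086 CPM with CDD-3013 and 539 and 598 CPM with 10 µM CDD-2728 (0.91 ± 0.07), the vasodilator peptide ADM was higher (0.66 ± 0.08) and the glucose transporter SLC2A3 lower (-0.93 ± 0.07).

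Circadian factors gave 1 higher and 7 lower of 14 tested (median -0.44), with 11 lower with library totals. The repressors NR1D1 (6.35 and 6.07 CPM with CDD-3013 and 14.2 and 14.4 CPM with 10 µM CDD-2728, -1.20 ± 0.15), NR1D2 (-0.79 ± 0.09) and PER1 (-0.72 ± 0.10) were lower. The steroid hormone list, of which 11 of 19 genes were tested, gave 0 higher and 4 lower, with 3 higher after the length and GC correction. DESeq2 called 0 higher too, and 1 was higher at an unadjusted p under 0.05. The glucocorticoid-induced TSC22D3 (-0.83 ± 0.13) and the orphan receptors NR2F1 (-0.47 ± 0.08) and NR2F2 (-0.34 ± 0.07) were among the lower genes. BCL2 family and apoptosis genes gave 7 higher and 8 lower of 22, with the pro-apoptotic BID higher (0.93 ± 0.09) and BCL2L11 lower (-0.97 ± 0.11).

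Among the largest differences outside these lists, OSR1 (chr2:19351485-19358653, minus strand), a zinc-finger factor of the developing urogenital tract, had 210 and 207 CPM with CDD-3013 and 34.0 and 41.0 CPM with 10 µM CDD-2728, against 160 and 171 CPM with 1 µM CDD-2728 and 84.2 and 106 CPM with IL1β (2.48 ± 0.10, 5.58-fold, adjusted p = 5.08e-12). Against IL1β it was higher with CDD-3013 (1.13) and lower with 10 µM CDD-2728 (-1.34). TNFSF18, a TNF-family ligand, had 18.6 and 19.0 CPM with CDD-3013 and 4.42 and 4.6 CPM with 10 µM CDD-2728 (2.06 ± 0.16). The cytokine IL24 (2.47 ± 0.37), the protease inhibitor SERPINB3 (1.92 ± 0.27; its near-identical neighbour SERPINB4 could share reads), the retinol receptor STRA6 (1.76 ± 0.26), the keratin KRT34 (1.76 ± 0.27), TAFA3 (1.76 ± 0.36) and the organic cation transporter SLC22A2 (66 counts with CDD-3013 and 7 with 10 µM CDD-2728, ratio 9.3, 95% counting interval 4.27 to 24) completed the 12 largest rises among protein-coding genes with at least 2 CPM in the higher group, with SERPINB2, MMP13, MMP3 and TXNIP.

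The 12 largest falls by the same rule were all of genes under 10 CPM. The bitter taste receptor gene TAS2R5 had 3 counts with CDD-3013 and 78 with 10 µM CDD-2728, a ratio of 26.4 (95% counting interval 8.69 to 131) towards 10 µM CDD-2728. RAB9B, a small GTPase, had 7 counts with CDD-3013 and 82 with 10 µM CDD-2728, and P2RX7, an ATP-gated channel, had 12 with CDD-3013 and 84 with 10 µM CDD-2728. PPP1R32 had 9 counts with CDD-3013 and 91 with 10 µM CDD-2728. SCART1 (-2.48 ± 0.34), ZNF837 (-2.31 ± 0.35), TFAP2E (-2.31 ± 0.48), DNAI4 (-2.30 ± 0.38), GPRC5D (-2.77 ± 0.44), GNMT (-2.35 ± 0.46), ATP6AP1L (-2.96 ± 0.60) and HSPA6 (-2.40 ± 0.49) were the others. Intervals of counts cover counting error only, and whether the counting used strand is not given in the sources used here, so reads of overlapping or antisense genes could be included.

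The marker lists of cell types were read as a check of the cells. Over the 11 tested epithelial markers the median level was 9.78 CPM with CDD-3013 and 10.9 CPM with 10 µM CDD-2728. Of these markers, 3 averaged under 1 CPM over the 5 groups. Stromal markers had medians of 55.1 and 72.2 CPM and mesothelial markers of 89.7 and 86.2 CPM in the same order, with 0 under 1 CPM. CPM is not divided by gene length, so the lists are not ranked by level, and they do not settle a cell identity. The keratin KRT8 was abundant. KRT8 had 8530 and 9468 CPM with CDD-3013 and 5413 and 5883 CPM with 10 µM CDD-2728 (0.67 ± 0.09), and KRT18, which overlaps it on the opposite strand in GENCODE 29, 0.53 ± 0.08. KRT7 was higher as well (1.17 ± 0.16), and of 11 tested epithelial markers (14 listed) 4 were higher, all of them keratins, and 0 lower, but the median was -0.16. The other 7 did not pass, the adhesion protein CDH1 at -0.40 (95% interval -0.76 to -0.03, adjusted p = 0.0744) among them. With library totals, with only the 4 libraries and without replicate 2 of 10 µM CDD-2728, 1 epithelial marker was called lower; EPCAM, CLDN7 and ESRP1 had too few counts to be tested. Mesothelial markers gave 2 higher (LRRN4, 0.85 ± 0.06, and CALB2, 0.40 ± 0.07) and 0 lower of 8, and stromal markers 5 higher and 3 lower of 13, with the proteoglycans LUM (0.55 ± 0.07) and DCN (0.45 ± 0.08) and the surface protein THY1 (0.39 ± 0.07) higher. Endothelial markers gave 0 higher and 2 lower of 6 tested (10 listed), KDR and CDH5 (-0.80 ± 0.31, lost under 6 alternatives). Of 17 immune markers 4 had enough counts, the pan-leukocyte PTPRC was not among them, and ITGAM was higher (1.70 ± 0.31, at 3.09 and 4.30 CPM with CDD-3013 and 0.960 and 1.31 CPM with 10 µM CDD-2728). Where a marker list had 0 called in a direction by edgeR's test, DESeq2 also called 0, and at an unadjusted p under 0.05 there was 1 lower epithelial, 1 higher endothelial and 0 lower mesothelial or immune markers. The part of these markers in the other results was not tested.

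Genes can be grouped by libraries that the comparison does not use. IL1β against vehicle called 32.6% of genes. Of 679 genes raised at least 2-fold by IL1β over vehicle, 196 (28.9%) were higher and 155 (22.8%) lower with CDD-3013, with a median of 0.06, and at least 2-fold differences were 74 higher and 32 lower. The balance turned to 153 higher and 208 lower with library totals and to 152 and 155 with the stricter filter. Of 490 genes lowered at least 2-fold by IL1β, 24 (4.9%) were higher and 147 (30%) lower, with a median of -0.42. Here the higher count was 14 with library totals and 15 without replicate 2 of 10 µM CDD-2728.

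The comparison of 1 µM CDD-2728 with IL1β called 4.59% of genes, 319 higher (2.03%) and 403 lower (2.56%). Of the 403 lowered genes, 104 (25.8%) were higher and 126 (31.3%) lower with CDD-3013 than with 10 µM CDD-2728 (median -0.05). This balance turned to 137 and 86 after the length and GC correction and to 88 and 83 without replicate 2 of CDD-3013; the higher count was 68 with library totals, and the lower count was 83 without replicate 1 of 10 µM CDD-2728. Of the 319 raised genes, 110 (34.5%) were higher and 99 (31%) lower, or 91 and 128 with library totals, 101 and 108 with the stricter filter and 91 and 94 without replicate 1 of 10 µM CDD-2728. These 403 and 319 genes themselves depend on single libraries. Leaving out 1 library gave 128 to 632 lowered and 96 to 854 raised genes. The 66 genes both raised at least 2-fold by IL1β and lowered by 1 µM CDD-2728, a set formed after values were seen, gave 24 higher and 17 lower (median 0.1), or 21 and 24 with library totals.

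**Figure D5:**
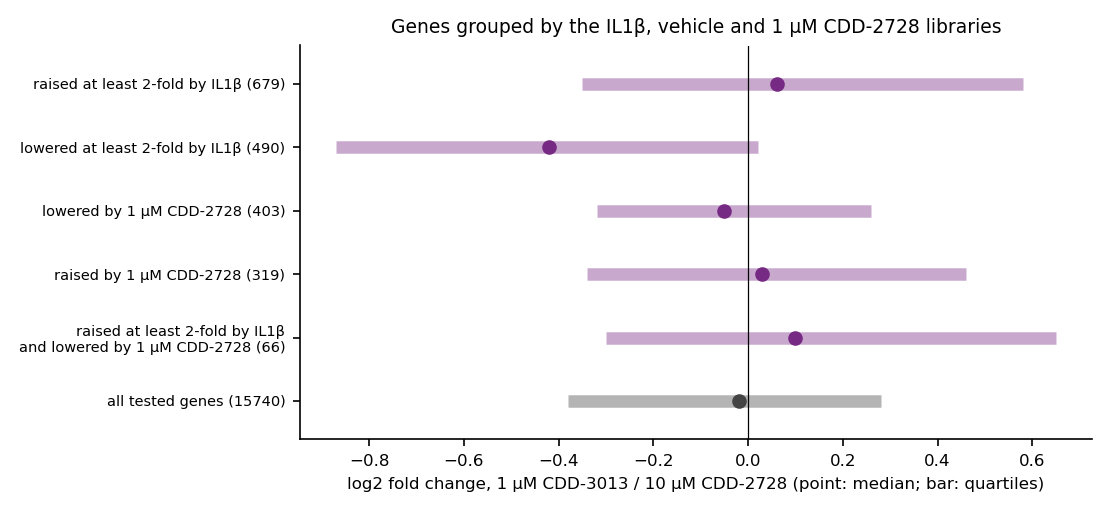
Median (point) and quartiles (bar) of the log2 fold change of 1 µM CDD-3013 over 10 µM CDD-2728 for genes grouped by the IL1β, vehicle and 1 µM CDD-2728 libraries, with the number of genes in brackets. The genes lowered by IL1β have a median of -0.42, and the other groups lie near all tested genes (-0.02).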

How the data were processed

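Poly(A) RNA of 12Z cells was sequenced in 10 libraries, 2 for each of 5 groups. The authors deposited a table of raw read counts per gene, with reads trimmed by fastp, aligned to hg38 by STAR and counted by featureCounts per the submitters' processing notes, with versions and use of strand not given in the sources used here. Of 62750 gene IDs, 78 had no symbol.

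Genes passing filterByExpr with a minimum count of 10 (15740) were fitted in edgeR 4.0.16 (R 4.3.3, limma 3.58.1) with TMM factors and 1 term per group over all 10 libraries, which share the estimate of the spread (common biological coefficient of variation 0.06). The contrast of the 2 compound groups was tested with the quasi-likelihood test and Benjamini-Hochberg adjustment over all tested genes. SEs and 95% intervals are Wald values, and the intervals are not adjusted.

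The groups compared, the gene lists and the fixed genes were chosen with earlier results of these data known. Named were the 12 largest non-overlapping changes each way (protein-coding, at least 2 CPM in the higher group), the called members with the lowest adjusted p in each list (up to 3), and a fixed set of 26 genes. Alternatives were RLE factors, library totals, no filter, at least 5 CPM in 2 libraries, a replicate term, a length and GC correction (97.3% of tested genes had values), DESeq2 1.42.0, a fit of only the 4 libraries, and leaving out each library. Promoters were 250 bases before to 50 after the RefSeq start on GRCh38.p14, found for 11220 tested genes; printed stretches leave out bases within the GENCODE 29 gene. With 16312600 to 19479416 counts a library, genes of a few counts have wide intervals.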

Additional observations from a re-analysis of the deposited data

How the results depend on the processing

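Of 152 called genes that are named, 144 kept their direction and call under every alternative that tested them and 8 lost the call at least once; of the uncalled named genes 5 were called at least once, and 0 called genes reversed. The uncalled MAPK9 (log2 difference -0.11 to 0.11), FOSL1 (-0.32 to 0.10) and TNFAIP3 (-0.18 to 0.0029) changed sign between alternatives. Of 48 lists and sets, 11 turned their balance of higher and lower members under at least 1 setting. Counts of 1 to 3 members in a direction also moved by 1 in several lists. With library totals, CDD-3013 against 10 µM CDD-2728 gave 2085 genes higher and 4696 lower, IL1β against vehicle 1625 and 4726, and the higher members among genes lowered by IL1β and by 1 µM CDD-2728 were 14 and 68. A minimum of 1.5-fold left 923 higher and 1482 lower, and of 2-fold 189 and 691. The length and GC correction gave 1670 genes lower with CDD-3013 than with IL1β, and no filter gave 551 higher with 1 µM CDD-2728 than with IL1β.

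Leaving out 1 library at a time gave 2321 to 3063 genes higher and 1996 to 2492 lower with CDD-3013 than with 10 µM CDD-2728, 2077 to 2730 higher and 1603 to 2071 lower with CDD-3013 than with IL1β, and 1567 to 1816 higher and 1638 to 1788 lower with 10 µM CDD-2728 than with IL1β. For 1 µM CDD-2728 against IL1β the ranges were 96 to 854 higher and 128 to 632 lower, and for IL1β against vehicle 2114 to 2335 higher and 1393 to 1624 lower. Members higher among genes lowered by IL1β ranged over 15 to 23, and members lower among those lowered by 1 µM CDD-2728 over 83 to 110. The causes of these shifts were not tested, beyond that a fit without a library holds fewer samples and takes the remaining library of its group to vary like the others.

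The share of promoters with TGANTCA in the 250 bases before the start was 3.88% for genes higher with CDD-3013, 3.44% for genes lower and 4.14% for all tested genes. For TGACGTCA in 300 bases the shares were 3.21%, 3.14% and 3.31%, and for TGACATCA 1.18%, 1.87% and 1.41%, in that order. Same-numbered libraries of the 2 compound groups did not deviate together (r = 0.032 across genes), so the numbers are not taken to pair them. A replicate term gave 3264 higher and 3019 lower genes, and moved 1 named gene, HBEGF, past the threshold. Genes removed by the stricter filter have no value under it.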

Other observations

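The genes with at least 2-fold differences between CDD-3013 and 10 µM CDD-2728 were mostly of low level. The 189 higher genes had a median of 3.45 CPM in their higher group, and 64 reached 10 CPM. The 691 lower genes had a median of 2.35 CPM, and 109 reached 10 CPM, against a median of 20 CPM over all tested genes. Protein-coding genes were 66.7% of the higher and 63.8% of the lower genes, against 82.4% of all tested genes.

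The means of the other groups were placed between the same 2 groups whose difference chose these genes. A gene of low level could also pass the count filter only through the group where it is high, which puts the other groups near the lower one. The shares below are thus partly set by the choice of genes and do not test a likeness of groups. On the log2 scale, the IL1β mean of these genes lay nearer to CDD-3013 than to 10 µM CDD-2728 for 125 of the 189 higher genes (66.1%) and for 469 of the 691 lower genes (67.9%). The 1 µM CDD-2728 mean lay nearer to CDD-3013 for 156 of the 189 (82.5%) and 527 of the 691 (76.3%). The vehicle mean lay nearer to CDD-3013 for 67 of the 189 (35.4%) and 334 of the 691 (48.3%). Over all 3333 higher and 3102 lower calls the shares nearer to CDD-3013 were 41.3% and 51.2% for IL1β, 54.0% and 60.9% for 1 µM CDD-2728, and 28.5% and 40.4% for vehicle.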
